A study of Danio rerio with 6 samples.

Results

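The genes described here encode heat shock proteins and J-domain co-chaperones. They were taken by name, as every row of the expression table whose gene symbol begins with hsp or dnaj and whose mean over the 6 libraries was at least 10 normalized reads. No matching row fell under the minimum, but the lowest mean of any row in the table was 7.54, so genes with lower means were absent. The rule found 83 genes among the 20836 that passed the same minimum, 32 with an hsp symbol and 51 with a dnaj symbol. They were grouped by symbol into small heat shock proteins (8 genes), the Hsp70 family (13), Hsp90 (3), the mitochondrial chaperonin pair (2), chaperones of the endoplasmic reticulum (ER, 5), and J-domain proteins of the dnaja (5), dnajb (13) and dnajc (30) classes. Another 4 symbols matched the rule without belonging to these groups.

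RNA was sequenced from zebrafish embryos carrying the Tg(c-mybhyper:GFP) transgene, which both groups shared. Embryos of the Tan I group received 60 µM Tanshinone I (Tan I), a lipophilic compound of the herb Dan-shen that the study examined for its action on blood formation, and embryos of the DMSO group received the solvent alone. Exposure ran from 30 to 72 hours post-fertilization (hpf), when RNA was taken, and each group had 3 libraries. The number of embryos per library, and whether libraries came from separate clutches, was not given in the sources used here, so the p-values measure only the spread between these libraries, which may be technical.

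Heat shock proteins are molecular chaperones. Hsp70 proteins bind exposed stretches of unfolded chains in a cycle driven by ATP, J-domain proteins deliver clients and speed up ATP hydrolysis by Hsp70, Hsp90 acts later on signalling proteins and receptors, and small heat shock proteins hold unfolding proteins without ATP. Some members are made at all times, while others are transcribed strongly when heat shock factor 1 (HSF1) is released by misfolded protein. In zebrafish embryos hsp70l is a strongly heat-inducible gene, and its promoter is widely used to switch on transgenes by warming.

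Reads assigned to genes summed to between 20451593 and 24932190 in the Tan I libraries and between 15874701 and 16959503 in the DMSO libraries, so every Tan I library was deeper than every DMSO library. The labels call the material embryonic cells while the protocol describes embryos, and the summed normalized counts of skeletal muscle genes were 548225 to 664791 in Tan I libraries and 584880 to 687654 in DMSO libraries, with lens and heart genes also present. In such whole-embryo RNA, fewer cells of a type and less RNA per cell cannot be told apart. Values below are the deposited normalized read counts, which also depend on transcript length and are therefore compared between libraries and not between genes. Fold changes are on the log2(value + 1) scale, Tan I over DMSO, and a gene was called changed at an adjusted p under 0.05 (limma, Benjamini-Hochberg adjustment over all 20836 genes).

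Of the 83 genes, 2 were called higher in Tan I embryos, the small heat shock protein gene hspb6 and the Hsp70 gene hsp70.2, and 0 were called lower by limma. Over all tested genes, 2.07% were called higher, 0.504% lower and 2.57% in either direction, so the share of called members was near the background. The median log2 fold change of the members was -0.020, beside -0.0067 over all tested genes, and 71 of the 83 lay within 0.25 log2 units of 0. An unadjusted limma p under 0.05 was reached by 13 members, 10 higher and 3 lower, against 15.3% of all genes (8.77% higher and 6.50% lower). The libraries of the groups did not overlap for 15 members, with Tan I above DMSO in 8 and below in 7, against 21.1% of all genes (10.7% above and 10.4% below). The 4 log2 fold changes larger than 1 all belonged to inducible Hsp70 genes.

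**Figure D1:**
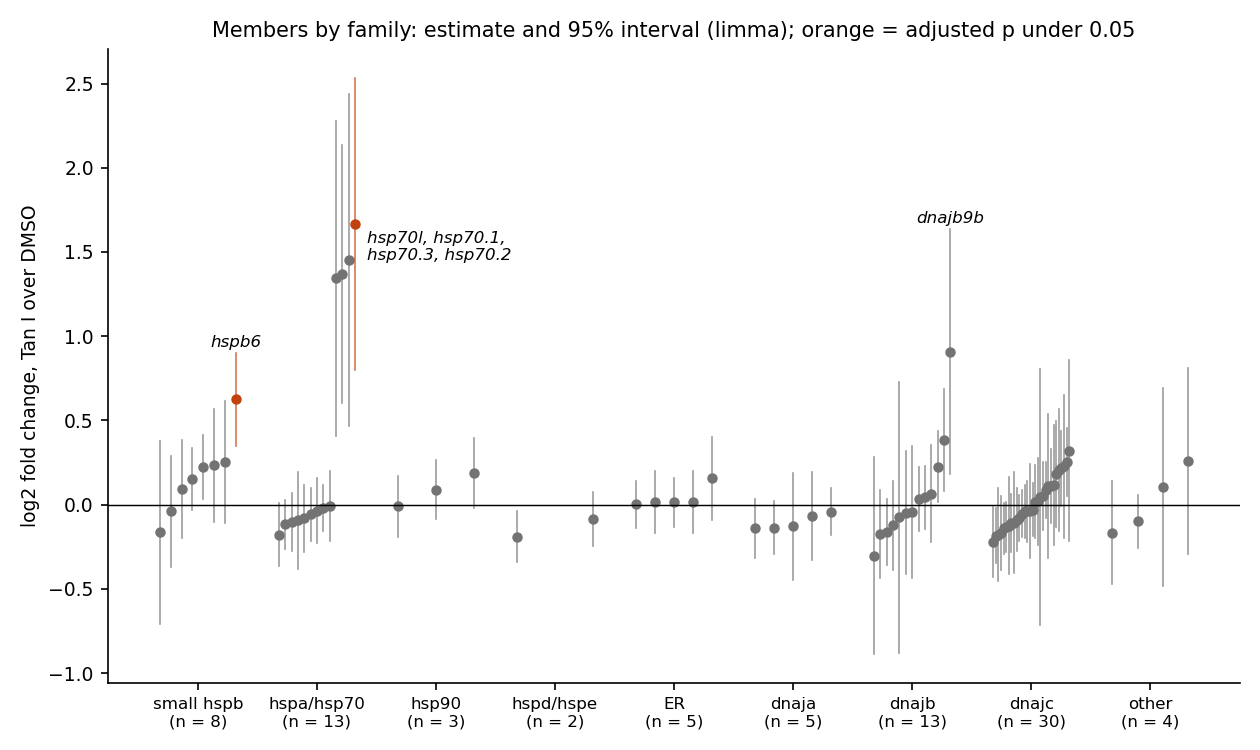
Log2 fold change, Tan I over DMSO (vertical axis), of the 83 heat shock and J-domain genes, arranged by family along the horizontal axis with the number of genes under each name. Points are limma estimates, lines are 95% intervals, and orange marks an adjusted p under 0.05. The 4 hsp70 genes stand between 1.34 and 1.67, hspb6 at 0.63 and dnajb9b at 0.91, while most other estimates lie close to 0.

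The inducible Hsp70 genes of the table were hsp70.1, hsp70.2, hsp70.3 and hsp70l. The first 3 lie next to each other on chromosome 3 in the RefSeq annotation of assembly GRCz12tu, with 0 protein-coding genes between neighbours. Since only uniquely mapping reads were kept, close copies such as these can lose reads or exchange them, and the split among the 4 genes is uncertain. All 4 had a mean 2.58 to 3.08 times higher in Tan I embryos, and all 4 had an unadjusted limma p under 0.05, but only hsp70.2 passed the adjusted threshold. Single libraries carried much of these ratios: without Tan I replicate 2 they were 1.76 to 2.23, and without DMSO replicate 1 they were 3.43 to 4.83.

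For hsp70.2 (ENSDARG00000092362), normalized counts were 192, 329.6 and 115 in Tan I replicates 1, 2 and 3, against 119, 53.4 and 34.5 in DMSO replicates 1, 2 and 3. The groups overlapped, because Tan I replicate 3 fell below DMSO replicate 1. The means were 212 ± 109 in Tan I and 69.0 ± 44.4 in DMSO libraries (SD, n = 3 each), and the limma estimate on the log2 scale was 1.67 (SE 0.40, adjusted p = 0.0471). The call was kept in 2 of 6 fits that left out 1 library, namely without Tan I replicate 3 or without DMSO replicate 1, and in 7 of 11 other settings, with limma, edgeR or DESeq2 adjusted p between 0.00064 and 0.262 over all of them. It was lost without Tan I replicate 1 (limma adjusted p = 0.155), Tan I replicate 2 (0.200), DMSO replicate 2 (0.207) or DMSO replicate 3 (0.142). Among the other settings it was lost with a mean of at least 100 and with quantile normalization. The call was also lost in limma without the mean-variance trend (adjusted p = 0.262) and in DESeq2 on the recovered reads (adjusted p = 0.218).

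For hsp70.1 (ENSDARG00000029688), the Tan I libraries held 78.5, 141 and 42.2 normalized reads and the DMSO libraries 39.3, 24.3 and 26.7. Every Tan I library was above every DMSO library, although Tan I replicate 3 exceeded the highest DMSO library only slightly. The limma estimate was 1.37 log2 units (SE 0.35, adjusted p = 0.0652). In DESeq2, run on recovered reads, hsp70.1 passed the threshold (adjusted p = 0.00167), but in edgeR on the same reads it did not. It was called in 1 of 6 fits that left out 1 library, with limma adjusted p up to 0.261. Among the other settings it was called in 2 of 10.

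For hsp70.3 (ENSDARG00000021924), the counts were 368, 513 and 160.0 in Tan I libraries and 232, 119 and 52.3 in DMSO libraries, with a limma estimate of 1.45 log2 units (SE 0.46, adjusted p = 0.138). The heat-inducible hsp70l (ENSDARG00000055723) had 198, 429 and 89.5 normalized reads in Tan I libraries against 120.2, 74.1 and 51.2 in DMSO libraries, with a limma estimate of 1.34 log2 units (SE 0.43, adjusted p = 0.149). In both genes Tan I replicates 1 and 2 were above all DMSO libraries, and Tan I replicate 3 was below DMSO replicate 1. For hsp70l the ratio of means was 2.92 with all libraries and 1.76 without Tan I replicate 2, and its limma estimate without that library was 0.78 log2 units. For hsp70.3 the ratio was 2.58 with all libraries and 4.05 without DMSO replicate 1, and its limma estimate was 0.90 log2 units without DMSO replicate 3.

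**Figure D2:**
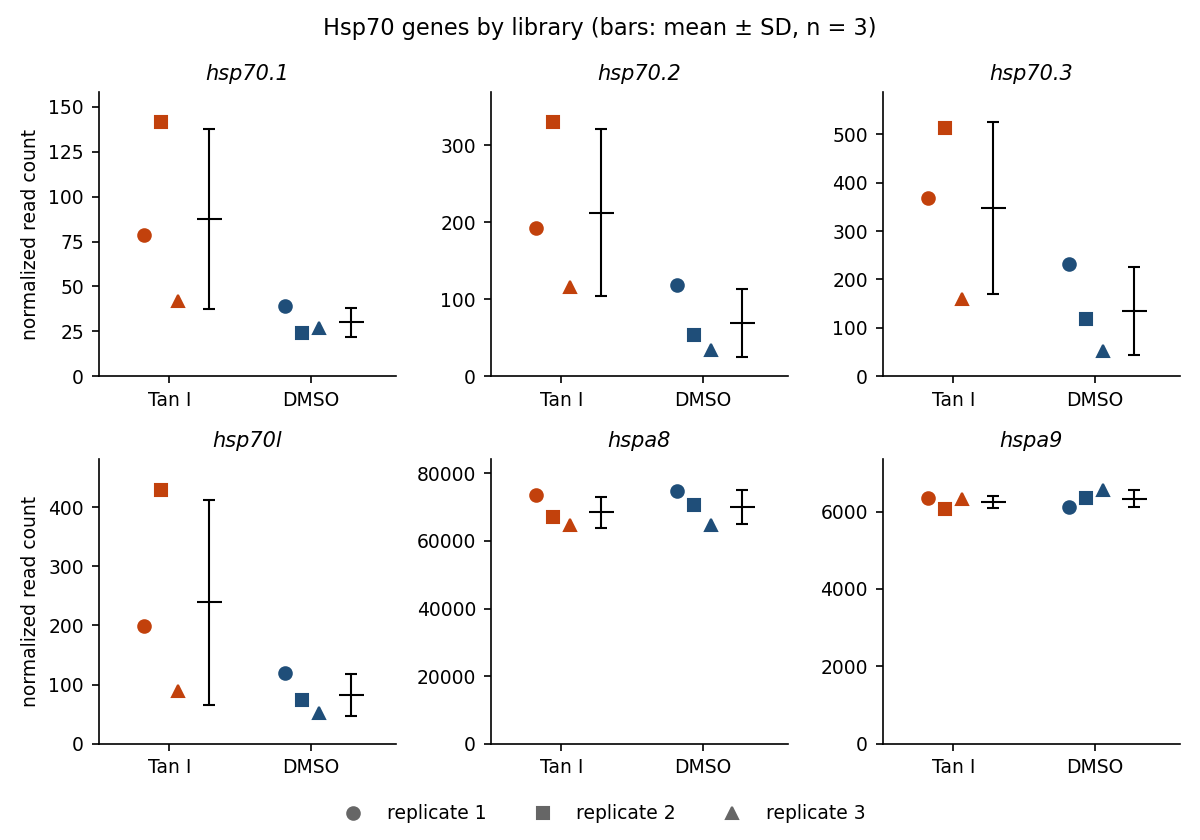
Normalized read counts (vertical axes, each starting at 0) of 6 Hsp70 genes in the Tan I libraries (orange, left) and the DMSO libraries (blue, right), with symbols for replicates 1 to 3 and bars for the mean ± SD (n = 3). Tan I replicate 2 was highest in each of the 4 hsp70 panels, while hspa8 and hspa9 had similar means in both groups.

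The libraries took the same order in hsp70.2, hsp70.3 and hsp70l, from high to low Tan I replicate 2, Tan I replicate 1, DMSO replicate 1, Tan I replicate 3, DMSO replicate 2 and DMSO replicate 3. Summed over the 4 genes, the normalized counts were 837, 1413 and 407 in Tan I libraries and 511, 271 and 165 in DMSO libraries, with means of 886 ± 505 in Tan I and 315 ± 177 in DMSO libraries (SD, n = 3 each), a ratio of 2.81, which was 1.97 without Tan I replicate 2 and 4.07 without DMSO replicate 1. The highest library exceeded the lowest 3.47-fold within the Tan I group and 3.10-fold within the DMSO group, so the range inside each group was wider than the ratio of the means. Tan I replicate 2, the library with the highest sum, stood at 4.48 times the DMSO mean, while Tan I replicate 3 stood at 1.29 times and DMSO replicate 1 at 1.62 times that mean.

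These sums rest on 1077, 1509 and 473 reads in the Tan I libraries and 442, 223 and 148 reads in the DMSO libraries, so that counting error is small beside the spread. The SD of the 4 genes within groups was 0.66 to 0.97 log2 units, which placed them at percentiles 98.5 to 99.8 of all tested genes, where the median gene had 0.143 and the median member 0.127. No other member had a within-group SD above 0.52.

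**Figure D3:**
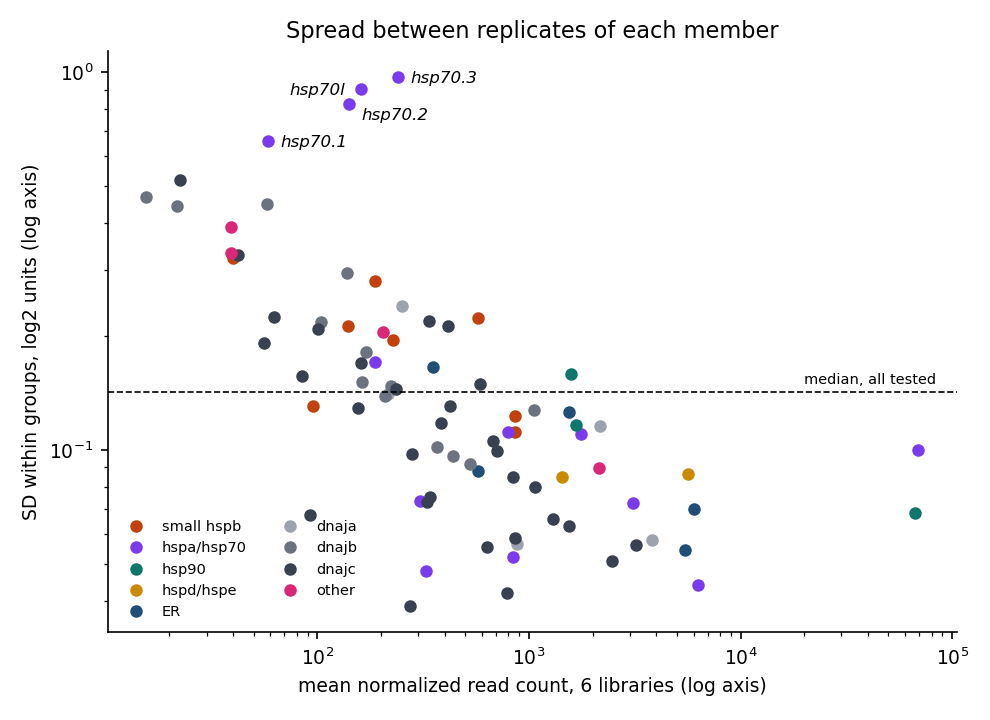
SD within groups on the log2 scale (vertical log axis) against the mean normalized read count over the 6 libraries (horizontal log axis) for the 83 members, coloured by family. The dashed line is the median of all tested genes, 0.143, and the 4 hsp70 genes, between 0.66 and 0.97, lie above every other member.

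Other measures also differed between libraries. The neutrophil list held mpx, lyz, lect2l, mmp13a, npsn, srgn and cpa5, and their specificity to neutrophils was not tested. Its sums were 4108, 6171 and 3791 normalized reads in Tan I libraries and 3373, 3396 and 3643 in DMSO libraries. Of its 8 rows 0 were called by limma, 1 by edgeR and 1 by DESeq2. Unadjusted limma p was under 0.05 for 4 of them (50%), all higher, beside 8.77% of all genes in that direction. The high value of Tan I replicate 2 came from mmp13a, a matrix metalloproteinase gene on 2 rows, at 531 and 1909 normalized reads in that library. Without these rows the sums were 3761, 3731 and 3628 in Tan I libraries and 3203, 3247 and 3528 in DMSO libraries. Every Tan I library was then above every DMSO library, Tan I replicate 3 only slightly above DMSO replicate 3. Tan I replicate 1 and DMSO replicate 3 were the highest of their groups. The genes in this sum did not move together. The log2 fold changes were 0.40 for mpx, 0.43 for lyz, 0.23 for npsn, 0.09 for cpa5, 0.045 for srgn and -0.30 for lect2l. Replicate 3 of either group had the lowest hsp70 sum of its group and also the lowest lens sum, 7138 in Tan I and 9077 in DMSO, against up to 15411 in Tan I and 17802 in DMSO libraries, with 0 of 9 lens rows called by limma, edgeR or DESeq2 and 0 at an unadjusted limma p under 0.05. Summed skeletal muscle genes took the order of the hsp70 sums within each group, and were also lowest in replicate 3. They were 625555, 664791 and 548225 in Tan I libraries and 687654, 634120 and 584880 in DMSO libraries. Summed heart genes were instead highest in replicate 3 of each group. Their sums were 1379, 1383 and 1393 in Tan I and 1345, 1473 and 1507 in DMSO libraries. The summed blood stem and progenitor list (myb, runx1, gata2b, tal1, lmo2 and gfi1aa) was not lowest in replicate 3 of either group. Its sums were 2371, 2260 and 2353 in Tan I and 2305, 2323 and 2311 in DMSO libraries. The co-chaperone gene fkbp5, a glucocorticoid-responsive immunophilin in mammals, was lowest in replicate 3 of each group. Its values were 3334, 3451 and 1695 in Tan I and 3479, 3008 and 1934 in DMSO libraries. This gene was picked after its values were seen, from 43 measured rows of co-chaperone and heat shock factor genes. Others of that list, such as stip1 and hsf1, were not lowest in replicate 3 of either group. The part of these differences in the hsp70 values was not tested.

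The remaining 9 Hsp70 family genes were not called, and their log2 fold changes lay between -0.18 and -0.0078 with a median of -0.081. The constitutive cytosolic Hsp70, hspa8 (ENSDARG00000068992), had 73557, 67109 and 64637 normalized reads in Tan I libraries and 74734, 70785 and 64792 in DMSO libraries. Its log2 fold change was -0.034, with a 95% interval of -0.23 to 0.16 (limma adjusted p = 0.895), and it took 0.349 to 0.380% of reads in Tan I libraries against 0.344 to 0.381% in DMSO libraries. Relative to their DMSO means, hspa8 therefore ran between 0.922 and 1.07 over the 6 libraries while the hsp70 sum ran between 0.522 and 4.48.

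The mitochondrial Hsp70, hspa9 (ENSDARG00000003035), averaged 6246 ± 155 in Tan I and 6335 ± 223 in DMSO libraries (SD, n = 3 each), a log2 fold change of -0.02 with an interval of -0.15 to 0.11. The Hsp110-type genes hspa4a, hspa4b and hspa4l, whose proteins exchange nucleotide on Hsp70, had log2 fold changes of -0.10, -0.12 and -0.057. The ribosome-associated hspa14 had 803, 660.1 and 789 normalized reads in Tan I libraries and 846, 860 and 832 in DMSO libraries, with all Tan I libraries below all DMSO libraries and an unadjusted limma p of 0.0596 from the fit across all genes. The atypical members hspa12a, hspa12b and hspa13 had log2 fold changes of -0.081, -0.0078 and -0.092.

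Among small heat shock proteins, hspb6 (ENSDARG00000077236), which encodes Hsp20, a protein abundant in mammalian muscle and heart, rose in Tan I embryos. Its normalized counts were 802, 769.6 and 542 in Tan I libraries, against 451, 469 and 430.4 in DMSO libraries. All Tan I libraries were above all DMSO libraries, Tan I replicate 3 by the smallest margin. The means were 705 ± 142 in Tan I and 450.0 ± 19.1 in DMSO libraries (SD, n = 3 each), a 1.57-fold difference, and the limma estimate on the log2 scale was 0.63 (SE 0.13, adjusted p = 0.0197).

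The hspb6 call was kept in 10 of 11 settings that used all libraries and lost in limma without the mean-variance trend (adjusted p = 0.174). Among the fits without 1 library it was kept without Tan I replicate 3 (limma adjusted p = 0.00015) and lost in the other 5, where the adjusted p was 0.0912 without Tan I replicate 1, 0.114 without Tan I replicate 2, 0.0501 without DMSO replicate 1, 0.0812 without DMSO replicate 2 and 0.0683 without DMSO replicate 3. The log2 fold change was between 0.52 and 0.80 throughout. With every library thinned to the depth of the smallest, the adjusted p was 0.0298 for hspb6 and 0.0417 for hsp70.2 in limma. Of 15 rows of skeletal muscle genes 0 were called by limma or edgeR and 1 (myhz1.1, lower) by DESeq2. Unadjusted limma p was under 0.05 for 3 (20%, beside 15.3% of all genes), 1 higher and 2 lower. The median log2 fold change of the 15 rows was -0.038. Summed heart genes were 1379 to 1393 in Tan I libraries, within the 1345 to 1507 of the DMSO libraries. Of 6 heart rows 0 were called by limma, edgeR or DESeq2. An unadjusted limma p under 0.05 was reached by 1 of them (16.7%, beside 15.3% of all genes), nppb. It had 20.2, 32.8 and 19.8 normalized reads in Tan I and 8.09, 14.6 and 17.8 in DMSO libraries (log2 fold change 0.83).

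**Figure D4:**
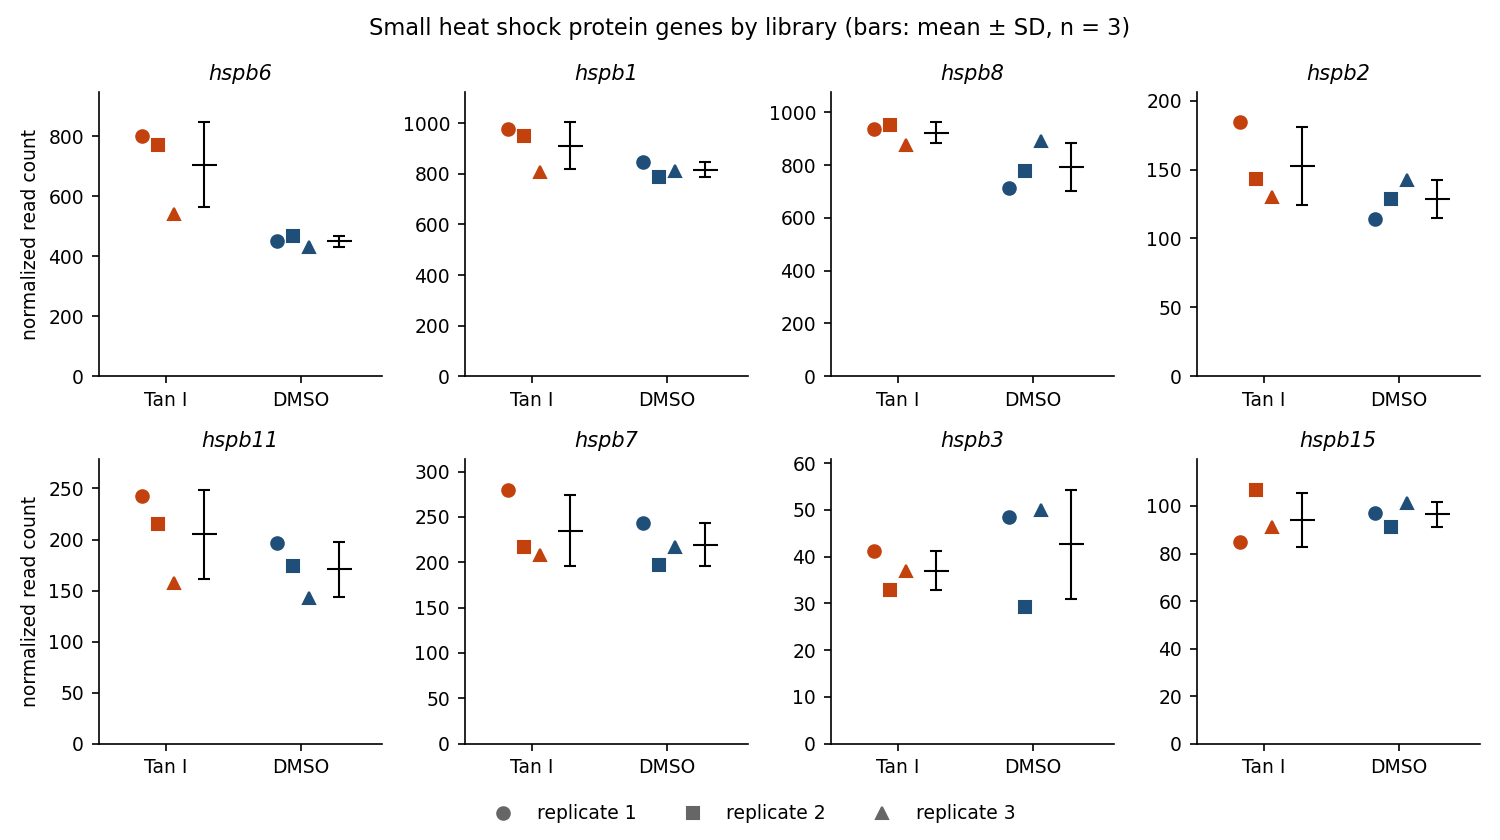
Normalized read counts (vertical axes, each starting at 0) of the 8 small heat shock protein genes in the Tan I libraries (orange, left) and the DMSO libraries (blue, right), with symbols for replicates 1 to 3 and bars for the mean ± SD (n = 3). In hspb6 the lowest Tan I library, at 542, is above the highest DMSO library, at 469, and in the 7 other panels the groups overlap.

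The other 7 small heat shock protein genes were not called, with log2 fold changes between -0.16 and 0.25, and the median of the 8 was 0.19. The gene hspb8, whose protein works with Bag3 in removing misfolded muscle proteins in mammals, had 937, 951 and 877 normalized reads in Tan I libraries and 712, 776 and 891 in DMSO libraries. The groups overlapped at DMSO replicate 3, and the limma estimate on the log2 scale was 0.22 (SE 0.088, adjusted p = 0.249). The stress-inducible hspb1, which encodes Hsp27, averaged 912 ± 91.6 in Tan I and 817 ± 29.8 in DMSO libraries (SD, n = 3 each), a log2 fold change of 0.15 (limma adjusted p = 0.419).

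The log2 fold changes of hspb2, hspb3 and hspb7, small heat shock proteins of mammalian muscle and heart, were 0.23, -0.16 and 0.09, each with overlapping groups. The row named hspb11, which a separate gene-name table calls hspb9l, had 0.25, and hspb15 had -0.039. In hspb1, hspb2, hspb6, hspb7 and hspb11, Tan I replicate 1 was the highest library and Tan I replicate 3 the lowest of its group.

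The cytosolic Hsp90 genes were not called. Heat-inducible hsp90aa1.1, needed for folding muscle myosin in zebrafish, averaged 1725 ± 173 in Tan I and 1619 ± 91.4 in DMSO libraries (SD, n = 3 each), a log2 fold change of 0.09 (limma adjusted p = 0.656). Its neighbour on chromosome 20 in the same RefSeq annotation, hsp90aa1.2, had 1837, 1758 and 1469 normalized reads in Tan I libraries and 1630, 1475 and 1331 in DMSO libraries. Its log2 fold change of 0.19 had a 95% interval of -0.017 to 0.40 (limma adjusted p = 0.373), and the split of reads between these close copies is uncertain. Constitutive hsp90ab1 averaged 66550 ± 3344 in Tan I and 66945 ± 2933 in DMSO libraries (SD, n = 3 each), with an interval of -0.19 to 0.17 around a log2 fold change of -0.0088.

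The mitochondrial chaperonin Hsp60 and its lid Hsp10 are encoded by hspd1 and hspe1, adjacent genes on chromosome 9 in that annotation. For hspd1 (ENSDARG00000056160) the normalized counts were 4836, 5273 and 5660 in Tan I libraries and 5768, 6100 and 6079 in DMSO libraries. All Tan I libraries were below all DMSO libraries, and the limma estimate on the log2 scale was -0.19 (SE 0.071, adjusted p = 0.216, unadjusted 0.0191). For hspe1 the means were 1390 ± 93.8 in Tan I and 1472 ± 69.0 in DMSO libraries (SD, n = 3 each), and the groups overlapped (log2 fold change -0.084, limma adjusted p = 0.638).

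None of the 5 ER chaperone genes was called by limma and none reached an unadjusted p under 0.05, their log2 fold changes lying between 0.0015 and 0.16. The ER Hsp70 hspa5 (BiP), the main sensor-binding chaperone of the unfolded protein response, had 5440, 5610 and 5328 normalized reads in Tan I libraries and 5575, 5627 and 5169 in DMSO libraries. The groups overlapped fully, and the 95% interval of its log2 fold change was -0.14 to 0.14 (limma adjusted p = 0.994). The ER Hsp90 hsp90b1 (Grp94) averaged 6063 ± 422 in Tan I and 5992 ± 35.6 in DMSO libraries (SD, n = 3 each), with an interval of -0.13 to 0.16. The ER J-domain genes dnajb11 and dnajc3b had log2 fold changes of 0.016 and 0.014, and dnajc3a, which encodes a copy of the eIF2 alpha kinase inhibitor P58IPK, had 0.16 (limma adjusted p = 0.561).

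Of all 51 J-domain genes, including those of the ER, 0 were called by limma, and 6 (11.8%) had an unadjusted p under 0.05, 4 higher and 2 lower, beside 15.3% of all genes. The groups did not overlap for 11 (21.6%) of them, beside 21.1% of all genes, with Tan I above DMSO in 6 and below in 5, and their median log2 fold change was -0.039. The dnaja class holds the J-domain proteins closest to bacterial DnaJ. All 5 of its genes had a negative log2 fold change, between -0.14 and -0.042, and none was called. The mitochondrial dnaja3a had 791, 836 and 881 normalized reads in Tan I libraries and 932, 918 and 906 in DMSO libraries, with no overlap (limma adjusted p = 0.401). The cytosolic dnaja2b had a log2 fold change of -0.14 and its paralog dnaja2a one of -0.042.

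In the dnajb class, dnajb1b encodes a homolog of Hsp40, the heat-inducible partner of cytosolic Hsp70. It had 166, 229 and 182 normalized reads in Tan I libraries and 149, 153 and 136 in DMSO libraries. All Tan I libraries were higher, Tan I replicate 2 most of all, and the limma estimate on the log2 scale was 0.39 (SE 0.14, adjusted p = 0.204). Its paralog dnajb1a had a log2 fold change of -0.17.

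The gene dnajb9b encodes a copy of ERdj4, an ER J-domain protein that counteracts the stress sensor IRE1 in mammals. It had 31.1, 27.2 and 25.8 normalized reads in Tan I libraries and 17.3, 8.50 and 20.0 in DMSO libraries. All Tan I libraries were above all DMSO libraries at these low counts, and the limma estimate on the log2 scale was 0.91 (SE 0.34, adjusted p = 0.212). Its paralog dnajb9a had a log2 fold change of -0.30, with a wide 95% interval of -0.89 to 0.28.

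The aggregation-suppressing dnajb6b had 385, 434 and 370.0 normalized reads in Tan I libraries and 317, 352 and 346 in DMSO libraries, with no overlap (log2 fold change 0.23, limma adjusted p = 0.290), and its paralog dnajb6a had 0.03. The other dnajb genes, namely dnajb2, dnajb4, dnajb5, dnajb12a, dnajb12b, dnajb13 and dnajb14, had log2 fold changes between -0.16 and 0.06.

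The dnajc class is the most varied, with J-domains attached to proteins of synapses, spliceosomes, ribosomes and mitochondria. Its 30 genes outside the ER group had log2 fold changes between -0.22 and 0.32 and a median of -0.033. Synaptic vesicle chaperones of the cysteine string protein type are encoded by the dnajc5 genes. Of these, dnajc5gb had 376, 363 and 369 normalized reads in Tan I libraries and 313, 287 and 330.3 in DMSO libraries, with no overlap (log2 fold change 0.25 ± 0.094 SE, limma adjusted p = 0.211). The dnajc5aa, dnajc5ab and dnajc5ga genes had log2 fold changes of -0.09, -0.079 and -0.11, and dnajc5b, at a mean of 22.5 over the 6 libraries, had 0.04.

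The splicing-associated dnajc8 had 983, 1028 and 983 normalized reads in Tan I libraries and 1189, 1175 and 1041 in DMSO libraries. All Tan I libraries were lower, and the limma estimate on the log2 scale was -0.18 (SE 0.075, adjusted p = 0.263). For dnajc14 the normalized counts were 246, 252 and 259 in Tan I libraries and 292, 287 and 302.5 in DMSO libraries, again without overlap (log2 fold change -0.22 ± 0.096 SE, limma adjusted p = 0.295).

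Groups also did not overlap below DMSO for dnajc6, which encodes auxilin, the uncoating factor of clathrin vesicles (log2 fold change -0.13), and for dnajc11a, a partner of the mitochondrial cristae complex (-0.14). Above DMSO this held for dnajc4 (0.22) and dnajc28 (0.18). None of these 4 had an unadjusted limma p under 0.05. The ribosome-bound dnajc2 had a log2 fold change of -0.17, the mitochondrial import genes dnajc15 and dnajc19 had 0.05 and -0.037, and the ER disulfide reductase gene dnajc10 had 0.09.

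The 4 remaining symbols were hsph1, which encodes Hsp110, with a log2 fold change of 0.26 at a mean of 39.0 normalized reads, hspbp1, a nucleotide exchange factor of Hsp70, with -0.17, hspbap1 with 0.11, and hspg2 with -0.098. The last encodes perlecan, a heparan sulfate proteoglycan of basement membranes and not a chaperone, and was included because its symbol matches the rule. None was called.

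The 3 lists of genes that work with these chaperones gave 0 calls in limma, in edgeR and in DESeq2. Of 46 co-chaperone and heat shock factor genes listed, 43 were measured, 1 had an unadjusted p under 0.05 with a higher value (fkbp8, log2 fold change 0.18) and 1 with a lower value (tomm70a, the mitochondrial import receptor that docks Hsp70 and Hsp90, -0.17), and the median was -0.039. These 2 are 4.65% of the list, beside 15.3% of all genes. The regulator gene hsf1 had 597, 540.2 and 558 normalized reads in Tan I libraries and 558, 635 and 563 in DMSO libraries, a log2 fold change of -0.049 with overlapping groups. The HSF1-inducible co-chaperone bag3 had a log2 fold change of 0.16 (limma adjusted p = 0.509) and the collagen chaperone serpinh1b one of 0.22 (limma adjusted p = 0.380).

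Of the 24 rows for cytosolic chaperonin (the TRiC complex, which folds actin and tubulin), prefoldin and mitochondrial folding genes, 0 were called and 2 (8.33%) had an unadjusted limma p under 0.05, both lower, beside 6.50% of all genes in that direction. These were cct7 (log2 fold change -0.21, adjusted p = 0.156) and cct4 (-0.20, adjusted p = 0.159), subunits of TRiC. Tan I libraries lay below all DMSO libraries for 6 of the 24 (25%, beside 10.4% of all genes) and above for 0. These 6 were all genes of TRiC subunits, cct3, cct4, cct5, cct6a, cct7 and cct8. For the other TRiC rows of the list, tcp1 (log2 fold change -0.14) and both cct2 rows (-0.058 and -0.042), the groups overlapped. The median log2 fold change of the 24 rows was -0.054.

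Of 49 genes of ER folding and the unfolded protein response listed, 3 of which are also members, 47 rows were measured, 0 were called and 5 (10.6%) had an unadjusted limma p under 0.05, all higher, beside 15.3% of all genes in either direction and 8.77% in this one. They were dnajb9b, the degradation factor genes herpud1 (log2 fold change 0.29) and edem1 (0.16), and the transcription factor genes ddit3 (0.25) and atf4b (0.16). The median of the list was 0.024, and xbp1, whose spliced form drives ER chaperone genes, had 0.01. Counts per gene do not separate the spliced from the unspliced form, so xbp1 splicing was not measured.

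Across the 17 alternative settings, calls among the 83 genes came only from hspb6 and the 4 hsp70 genes. The other 78 had 0 calls in any setting, the lowest adjusted p being 0.0626 for hspd1 in the limma fit with a replicate block. No library held most of the extremes. The members were highest in 18, 11 and 9 cases in Tan I replicates 1, 2 and 3 and in 13, 13 and 19 cases in DMSO replicates 1, 2 and 3. They were lowest in 22, 11 and 8 cases in the Tan I replicates and in 17, 12 and 13 cases in the DMSO replicates, in the same order.

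**Figure D5:**
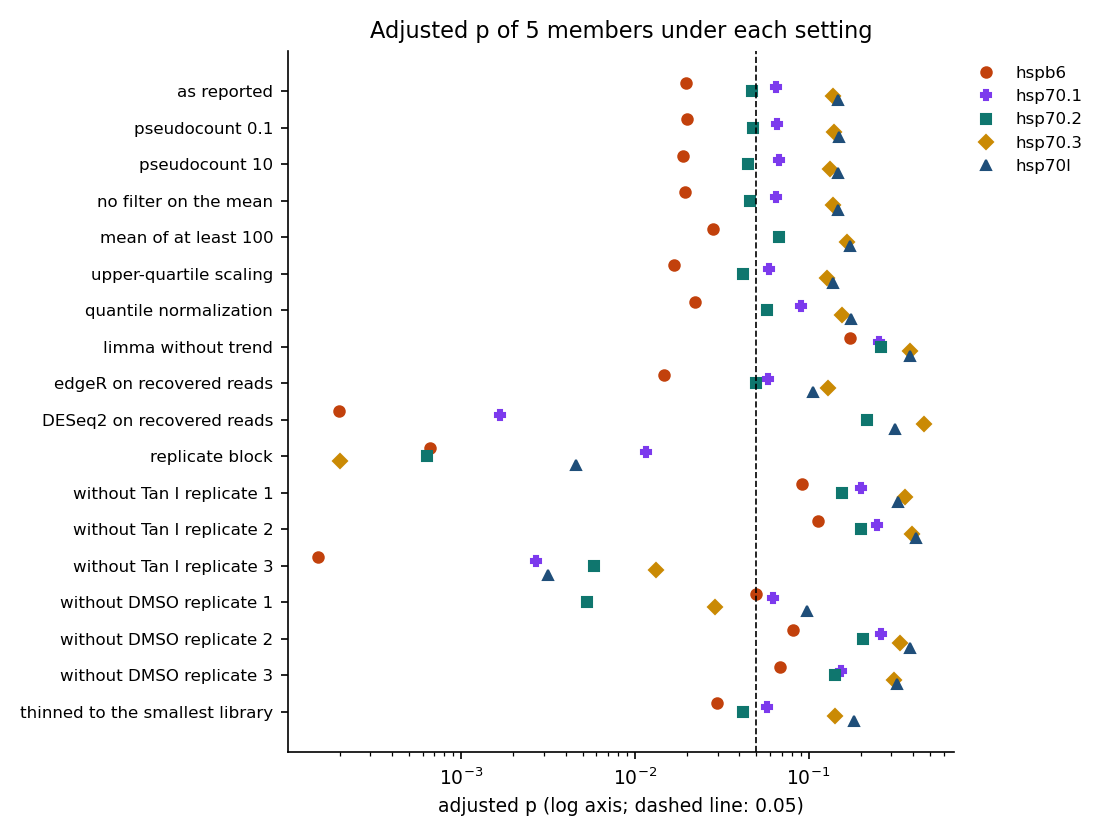
Adjusted p (horizontal log axis, dashed line at 0.05) of hspb6 and the 4 hsp70 genes in the reported fit and in 17 alternatives (vertical axis), 1 symbol per gene. With 1 library left out, all 5 genes pass only without Tan I replicate 3, and hspb6 is left of the line in most settings that keep all libraries.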

How the data were processed

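RNA-seq of whole zebrafish embryos gave 3 Tan I and 3 DMSO libraries. Per the methods and labels, the authors aligned paired reads to GRCz11 with STAR, removed multiply mapped reads, counted with featureCounts and normalized with DESeq2; versions and strand handling were not given in the sources used here. The deposited values are a normalized read signal: whole counts divided by 1 size factor per library. Dividing each library by its step, 0.777 to 1.21, gave whole reads (within 0.01) for 100.0% of values. Columns of the authors' own comparison (fold changes and p-values) were not used.

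All 21317 rows carried values, and 20836 with a mean of at least 10 were tested by limma 3.58.1 (R 4.3.3; lmFit, eBayes with trend, two-sided, no covariates) on log2(value + 1), with Benjamini-Hochberg adjustment and a threshold of 0.05. The fit was tested on simulated reads with the same spread beyond counting error in every gene. That test does not cover genes that vary as widely as the hsp70 genes. On the recovered reads, edgeR 4.0.16 (quasi-likelihood, TMM) called 561 genes and DESeq2 1.42.0 called 653, against 536 by limma. Other alternatives changed the pseudocount, filter, scaling, trend, replicate block and libraries used. Thinning to the smallest library was added after seeing the data, because depth differed by group.

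Members and lists were chosen with earlier results of these data known. Genes were named by rule (a fixed set, every called member, the 2 smallest p and the largest mean in each family); hsp70.3 and other members named beyond these were chosen after their values were seen. The muscle, neutrophil, and chaperonin and prefoldin lists each have 1 symbol on 2 rows (myhz1.1, mmp13a and cct2). Chromosomes and neighbours were taken from RefSeq GRCz12tu by symbol, which matched all 83 members. Replicate libraries differed by more than the sampling noise of reads (mean chi-square per gene 3.74 to 14.5), so none was counted as a resequenced copy of another. This comparison covers read sampling only and cannot tell whether the libraries came from separate embryos. Sequences were not analysed here, and the planned motif and protein descriptions were not made.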

Additional observations from a re-analysis of the deposited data

How the results depend on the processing

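The 536 genes called in all became 165 in limma without the trend and 1093 with a replicate block, and between 213 and 709 when 1 library was left out. The 2 called members became 1 with a mean of at least 100 or with quantile normalization (hspb6 in both), 0 without the trend, and between 0 and 5 when 1 library was left out. They became 0 without Tan I replicate 1, Tan I replicate 2, DMSO replicate 2 or DMSO replicate 3. Without Tan I replicate 3 they were 5 (hspb6 and the 4 hsp70 genes), beside 709 of all 20836 genes called in that fit. Without DMSO replicate 1 they were hsp70.2 and hsp70.3, and DESeq2 called hspb6 and hsp70.1. The cause of these shifts was not tested.

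Whether the replicate numbers pair the libraries cannot be told from the deviations from the group means. Deviations of same-numbered libraries correlated at 0.0815, -0.0289 and 0.208, and the value for replicates 3 was the highest of any pair. Differently numbered pairs ran from -0.181 to 0.103, and Tan I replicate 2 correlated best with DMSO replicate 1 (0.103). With the number as a replicate block, 5 of the 83 members were called, hspb6 and all 4 hsp70 genes, beside 1093 of all 20836 genes. The median log2 fold change of the members stayed between -0.037 and 0.0019, and it was above 0 only without Tan I replicate 1. Among the 4 hsp70 genes and hspb6, the direction was the same in every alternative run.

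Depth limits the low members most: dnajb9b, dnajb13 and dnajc5b averaged under 25 normalized reads. The hsp70 genes are limited by the spread between libraries, with 95% intervals that spanned more than 1.5 log2 units.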
